A study of Mus musculus with 12 samples.

Results

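This account follows 1 comparison: how gene expression in control CD8+ T cells differed between the end of an exhausting tumour co-culture and a later harvest after renewed stimulation of the T cell receptor. The 6 control libraries, of 12 in the series, were taken by their sample titles, 3 before and 3 after restimulation. The cells were OT-I CD8+ T cells from mouse spleen, which carry 1 transgenic T cell receptor for a chicken ovalbumin peptide and are therefore uniform in specificity. Both groups had been expanded with anti-CD3e, anti-CD28 and IL-2 in the presence of DMSO, the solvent control for ATRA (all-trans retinoic acid), had spent 5 further days in culture and had then been kept for 72 h at 1% oxygen with GL261, a mouse glioma cell line, expressing ovalbumin, without additives. The first group (labelled CTRL, exhaustion, and called co-cultured here) was sorted at that point. The second (labelled CTRL, exhaustion_stim, and called restimulated here) was exposed to anti-CD3e for 24 h before the sort. Live CD45.2+ cells were sorted in both. The labels do not state the oxygen level during restimulation. Nor do they tie the replicates to individual mice or cultures, so a p-value here reflects the scatter of 3 libraries a group, which may be technical. The ATRA groups, 3 libraries in each state, received ATRA at 5 ng/mL during the expansion and were otherwise handled alike, and they enter only the test of a difference near the end.

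When a T cell receptor meets its antigen, calcium and kinase signals switch on NFAT, AP-1, NF-kB and EGR transcription factors within hours, and these drive cytokines, chemokines and surface receptors. Chronic stimulation leads to exhaustion, a state with lasting expression of inhibitory receptors such as PD-1, TIM-3 and LAG-3 and of the factor TOX, and with weak cytokine output on re-challenge. A smaller progenitor-like pool keeps TCF1 (encoded by Tcf7) and SLAMF6. Solid tumours also confront T cells with low oxygen and scarce amino acids, to which cells respond through HIF and through the integrated stress response, whose central factor is ATF4.

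The comparison was made over 11559 tested genes of 13476 symbols present in both count tables. Its direction ran against what the label alone would lead a reader to look for: most genes known to be induced by T cell receptor signals were lower, not higher, in the libraries labelled restimulated. State and batch set (1 set for the co-cultured libraries, another for the restimulated ones) coincide and cannot be told apart, and the tables differ in gene naming too. The treatment label could be checked with Ccr9, a retinoic acid-induced homing receptor, which had 0 counts in all 6 control libraries and averaged 44.1 and 103 CPM (a gene's count relative to the scaled library total) in the ATRA groups. No gene was used to check the restimulation label. Of genes that T cell receptor signals induce, Xcl1, Egr2, Ccl3 and Ifng were lower in restimulated control cells and higher in restimulated ATRA cells. Tnfrsf9 was lower in both. The labels were used as given, and an exchange of state labels was not tested. Total counts were 25288129 to 26111497 per co-cultured library and 16288111 to 18647091 per restimulated library, so that 3 counts corresponded to 0.121 to 0.187 CPM. Co-cultured replicate 1 stood apart from replicates 2 and 3: its log CPM correlated with theirs at 0.978 and 0.981, against 0.994 between those 2, and mitochondrially encoded genes made up 1.18% of its counts, against 0.739% and 0.755%.

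Called genes (edgeR quasi-likelihood test, Benjamini-Hochberg adjusted p under 0.05) numbered 4582 (39.6% of those tested), of which 2211 (19.1%) were higher and 2371 (20.5%) lower in restimulated cells. A change of at least 2-fold was asked for in addition in a second count, which left 1497 genes (13%), 615 higher (5.32%) and 882 lower (7.63%). For 6117 genes (52.9%) the 3 restimulated libraries did not overlap the 3 co-cultured ones. The median log2 fold change over all tested genes was 0. The gene lists below were chosen with earlier results of these data known, so their counts and medians describe the listed genes only. Counts called in a list are to be read beside the shares of 19.1% higher and 20.5% lower. With library totals in place of TMM scaling, 60.21% of the called genes were higher, against 48.25% with TMM, and the median gene moved to 0.09. Fewer cells of a kind and less RNA per cell cannot be told apart in these bulk libraries, and all changes are relative to the total RNA of each library.

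The integrated stress response is the program that ATF4 runs when amino acids are scarce or proteins misfold, and most of its listed genes were lower in restimulated cells. Of 22 listed genes 21 fell and 0 rose, with a median log2 fold change of -1.97, and 16 of them fell by at least 2-fold. Upstream sequence is shown for 4 of these genes, of which Chac1, Pycr1 and Asns were chosen after their match was seen, because the element to which ATF4 binds together with C/EBP factors, TGATGNAA, was found there. It was searched on both strands in the 250 bases before each RefSeq gene start (build GRCm38.p6), with the genes of a single chromosome left out. Of the 22 genes 19 had an entry that was searched, and 5 of these (26.3%) held the element: Slc7a11, Chac1, Pycr1, Asns and Vldlr. Among genes searched, the share was 3.91% over all 27025, 2.44% over the tested genes and 5.19% over genes lower by at least 2-fold. For genes higher by at least 2-fold it was 2.57%. The listed genes were picked as members of this response, so a higher share among them is not a result of these data. Genes lower by at least 2-fold include listed genes. A match describes the letters and is not evidence of binding. The stretches run 5′ to 3′ on the strand of the gene, and capitals mark the element or its reverse complement.
Slc7a11 (chr3:50443634-50443733, minus strand): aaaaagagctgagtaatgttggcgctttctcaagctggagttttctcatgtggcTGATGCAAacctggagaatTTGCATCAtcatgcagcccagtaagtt
Chac1 (chr2:119351019-119351078, plus strand): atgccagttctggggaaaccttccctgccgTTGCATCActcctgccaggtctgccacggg
Pycr1 (chr11:120643822-120643881, minus strand): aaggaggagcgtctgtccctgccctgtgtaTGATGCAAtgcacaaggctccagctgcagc
Asns (chr6:7693214-7693243, minus strand): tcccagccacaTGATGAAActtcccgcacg
The Slc7a11 stretch carries 2 copies in opposite orientation, starting 66 and 47 bases before the gene start. In Chac1, Pycr1 and Asns a single copy starts 193, 103 and 23 bases before it.

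Slc7a11, the cystine importer subunit xCT, stood at 17.9, 17.2 and 17.4 CPM in the co-cultured libraries and at 0.510, 0.687 and 0 CPM in the restimulated ones. Its log2 fold change was -5.48 (SE 0.52, edgeR adjusted p = 0.00012). Cth, the enzyme that releases cysteine from cystathionine, had 107, 162 and 154 CPM before and 2.94, 2.44 and 2.40 CPM after restimulation, a log2 fold change of -5.76 (SE 0.20, edgeR adjusted p = 1.04e-07). Both genes supply cysteine, and the restimulated libraries lay far below the co-cultured ones for both. Chac1, a glutathione-degrading enzyme, fell from 12.5, 25.6 and 22.2 CPM to 0.849, 1.37 and 1.14 CPM. Pycr1, which makes proline, fell from 14.4, 18.3 and 16.8 CPM to 2.55, 3.18 and 2.94 CPM, and Asns, asparagine synthetase, fell from 335, 378 and 357 CPM to 152, 136 and 143 CPM. Atf4 itself fell from 336, 390 and 371 CPM to 117, 130 and 136 CPM (log2 fold change -1.52, SE 0.09). That is less than the list median of -1.97, though some members, Asns among them, fell less than Atf4. The pseudokinase gene Trib3 and the stress factor gene Ddit3 (CHOP) had log2 fold changes of -3.91 and -2.98. Vldlr, a lipoprotein receptor that ATF4 can induce, had 13.8, 9.74 and 7.69 CPM before restimulation and 0, 0 and 0.273 CPM after it (fitted log2 fold change -6.68, SE 0.64), so that its few reads after restimulation came from replicate 3 and the size of its decrease is uncertain. The serine synthesis genes Phgdh and Psat1 fell least among the 21, by 0.67 and 0.59 on the log2 scale. Slc38a2, an amino acid transporter, was the member not called, at 167, 278 and 284 CPM before and 183, 188 and 208 CPM after; without co-cultured replicate 1 it was called, at -0.55 (adjusted p = 0.000319).

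**Figure D1:**
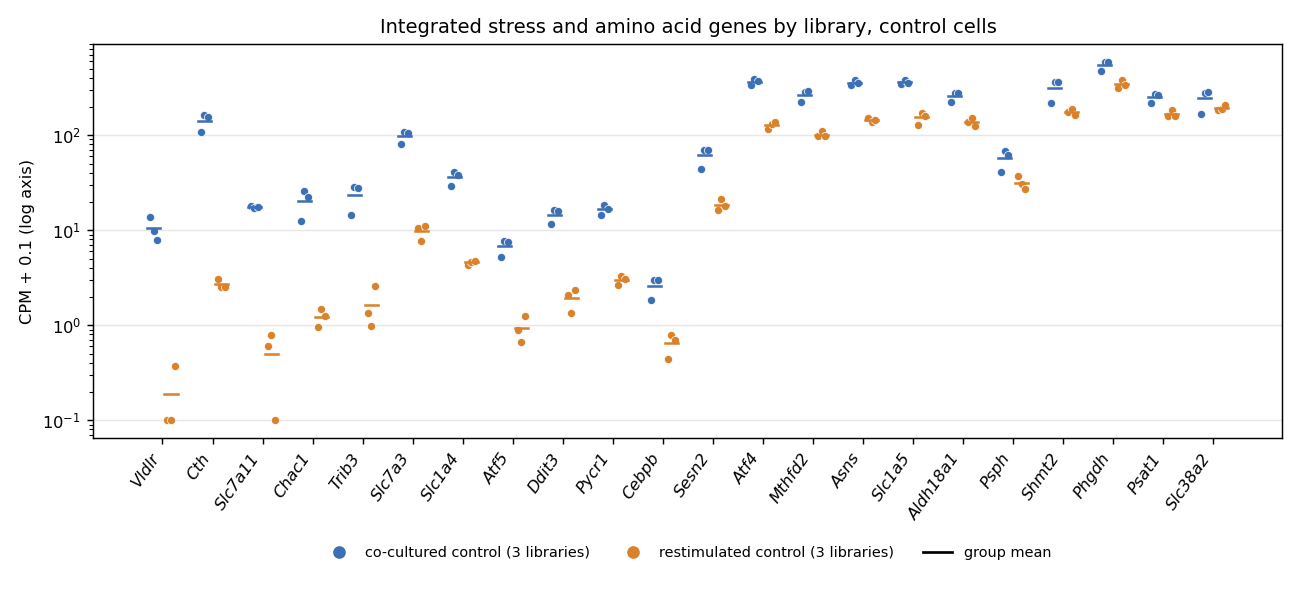
Level of the 22 integrated stress and amino acid genes in each of the 6 control libraries, as CPM + 0.1 on a log axis, with genes ordered by log2 fold change. Blue points are the 3 co-cultured and orange points the 3 restimulated libraries, and bars are group means; the groups overlap for Slc38a2 and lie far apart for Vldlr, Cth and Slc7a11, of which Vldlr has 2 and Slc7a11 has 1 restimulated library at 0.

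Genes outside that list were lower too. Aldh1l2, a mitochondrial folate enzyme, had 22.3, 25.7 and 23.5 CPM before and 0.396, 0.687 and 0.327 CPM after restimulation (log2 fold change -5.67). Mthfd2, a list member in the same mitochondrial one-carbon pathway, fell by 1.4 on the log2 scale. Cytosolic aminoacyl-tRNA synthetases, which charge tRNAs and are known ATF4 targets in part, are named differently in the tables, so they were matched by synonyms in an alternative and chosen after their values were seen. Of 16 tested there, 11 were called lower, 1 higher and 4 were not called. Yars1 had the largest change at -1.41. In the unfolded protein response list, which covers chaperones and folding enzymes of the endoplasmic reticulum, 15 of 20 genes fell and 0 rose (median -0.60). Hspa5 (BiP), the main chaperone there, fell from 767, 659 and 664 CPM to 358, 400 and 371 CPM, and the transcription factor gene Xbp1 fell by 1.20 on the log2 scale. The cytosolic heat shock list did not share this direction: of 13 genes 2 rose and 1 fell, with a median of -0.04 that became 0.07 with library totals alone, and none rose without co-cultured replicate 2 or 3.

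Most listed genes of the response to low oxygen fell. Of 22 tested hypoxia genes 19 fell and 0 rose, with a median log2 fold change of -0.93. Vegfa, the angiogenic growth factor, had 32.0, 34.1 and 32.1 CPM in co-cultured and 4.70, 4.56 and 6.38 CPM in restimulated libraries (log2 fold change -2.65, SE 0.16, edgeR adjusted p = 1.61e-06). Bnip3, a mitophagy receptor, fell from 193, 198 and 197 CPM to 50.3, 40.2 and 48.7 CPM. Within each group the 3 libraries were close for both genes, and the groups lay far apart. Stc2, a secreted glycoprotein also induced by stress, and P4ha2, a collagen prolyl hydroxylase, had log2 fold changes of -2.95 and -2.39. Glycolysis genes followed: of 19 tested 17 fell and 1 rose (median -0.81). The lactate exporter gene Slc16a3 fell by 2.22, the glucose transporter genes Slc2a3 and Slc2a1 by 1.45 and 1.37, hexokinase gene Hk2 by 1.28 and Ldha, lactate dehydrogenase A, by 0.53 on the log2 scale. The gene that rose was Slc16a1, another monocarboxylate transporter, by 0.32. In the nuclear-encoded respiratory chain list 26 of 34 genes were not called, 3 rose and 5 fell, with a median of 0. Sterol and fatty acid synthesis genes, targets of SREBP factors, fell in 19 of 29 cases and rose in 2 (median -0.65), of which neither was called higher without co-cultured replicate 1 or 3 or restimulated replicate 1 or 2. Mvd and Fdps of the mevalonate pathway fell by 1.80 and 1.48 on the log2 scale.

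Cytokine and chemokine transcripts were far lower in the libraries labelled restimulated. Of 14 tested cytokine genes 9 fell and 0 rose (median -2.15), and all 6 tested chemokine genes fell (median -2.99). Ifng, encoding interferon gamma, stood at 937, 731 and 723 CPM in co-cultured libraries and at 57.5, 54.9 and 60 CPM in restimulated ones, a log2 fold change of -3.79 (SE 0.12, edgeR adjusted p = 2.3e-08). Tnf fell from 170, 126 and 137 CPM to 31.4, 36.7 and 31.7 CPM. Csf2, encoding GM-CSF, fell from 236, 341 and 334 CPM to 22.3, 16.9 and 19.0 CPM, and Lta, encoding lymphotoxin alpha, fell from 164, 488 and 483 CPM to 16.5, 16.0 and 15.9 CPM. The restimulated libraries were near each other for each of these, while co-cultured replicate 1 was the highest for Ifng and Tnf and the lowest for Csf2 and Lta. Il23a, the p19 subunit of IL-23, had 49.8, 36.7 and 37.3 CPM before and 0.2265, 0.1249 and 0.545 CPM after restimulation (log2 fold change -7.04, SE 0.31, the largest called decrease among genes of at least 10 CPM, predicted genes aside). Il3 fell from 7.14, 12.1 and 11.5 CPM to 0.1698, 0.1249 and 0.436 CPM. Il23a and Il3 were near the floor of 3 counts in the restimulated libraries, so the sizes of their decreases are uncertain. Without co-cultured replicate 1, the number of cytokine genes that fell was 14. Il2 had 0 counts in all 3 restimulated control libraries and was not analysed here in the co-cultured ones.

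Among chemokines Ccl3, an inflammatory chemokine gene, fell from 1212, 887 and 928 CPM to 84.5, 102 and 78.1 CPM. Its relative Ccl4 fell by 3.03, and Ccl9 by 3.87 on the log2 scale. Xcl1, which attracts cross-presenting dendritic cells, fell from 631, 386 and 419 CPM to 59.3, 56.9 and 68.8 CPM. Ccl5, typical of memory and effector CD8+ T cells, fell least of the 6, by 1.64.

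Cytotoxic genes moved less evenly. Of 25 tested, 11 fell and 3 rose (median -0.98). Prf1, encoding the pore-forming protein perforin, fell from 948, 738 and 755 CPM to 140, 148 and 125 CPM (log2 fold change -2.56, SE 0.12, edgeR adjusted p = 3.93e-07). Gzmb, encoding granzyme B, fell from 1871, 1321 and 1332 CPM to 717, 761 and 814 CPM (log2 fold change -0.98, SE 0.14). Gzma, encoding granzyme A, was not called, at 350, 353 and 349 CPM before and 360, 366 and 500 CPM after. The restimulated values lay below the co-cultured ones for Prf1 and Gzmb and above them for Gzma, whose log2 fold change of 0.22 became 0.05 (adjusted p = 0.677) without restimulated replicate 3. Crtam, an adhesion molecule of activated CD8+ T cells, fell by 2.91 on the log2 scale, while Ctsw (cathepsin W) and Tnfsf10 (TRAIL) rose by 0.44 and 0.49. In TPM, which takes transcript length into account and was deposited for the restimulated libraries, the level of Gzmb was 680.5 ± 44.6 (SD, n = 3), that of Gzma was 679 ± 113, that of Ccl5 475.5 ± 66.7, that of Ccl3 209 ± 28.4, that of Ifng 122 ± 14.2, that of Prf1 79.5 ± 2.86 and that of Tnf 23.5 ± 1.45. Gzmb and Gzma do not differ beyond their spread in that order.

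**Figure D2:**
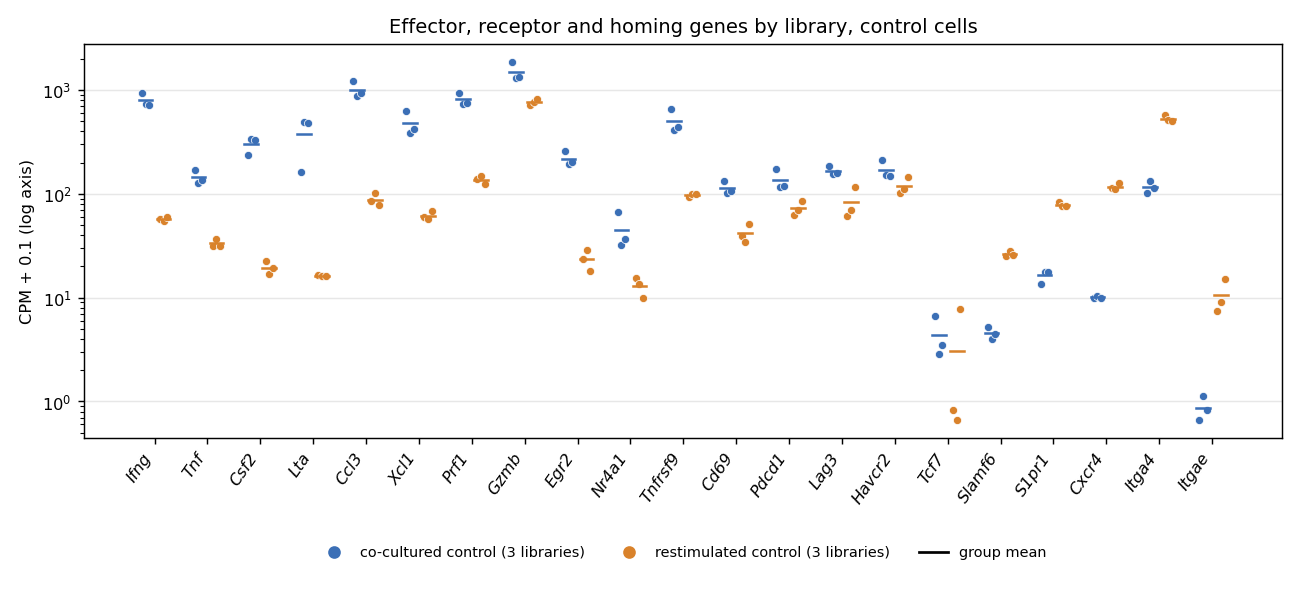
Level of 21 effector, receptor, progenitor and homing genes in each of the 6 control libraries, as CPM + 0.1 on a log axis. Blue points are the 3 co-cultured and orange points the 3 restimulated libraries, and bars are group means; Ifng stands at 723 to 937 CPM against 54.9 to 60 CPM, while Slamf6, S1pr1, Cxcr4, Itga4 and Itgae lie higher after restimulation.

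The transcription factors that T cell receptor signals induce were lower as well. Of 31 tested, 27 fell and 1 rose (median -1.60), and 21 fell by at least 2-fold. Egr2, a factor of activation and of anergy, fell from 257, 194 and 203 CPM to 23.3, 28.41 and 17.98 CPM (log2 fold change -3.23, SE 0.18, edgeR adjusted p = 4.1e-06). The orphan nuclear receptor genes Nr4a1, Nr4a2 and Nr4a3, reporters of receptor signalling that also promote exhaustion, had log2 fold changes of -1.79 (SE 0.32), -2.52 (SE 0.30) and -3.05 (SE 0.14). Nr4a1 fell from 66.4, 32.1 and 36.3 CPM to 15.5, 13.5 and 9.92 CPM. Its groups did not overlap, as for 52.9% of all tested genes, although co-cultured replicate 1 was well above the other co-cultured libraries. Irf8 fell from 217, 183 and 188 CPM to 32.5, 33.7 and 33.8 CPM, and its relative Irf4, which scales with receptor signal strength, fell by 0.83. The AP-1 subunit genes Fosb, Junb and Fosl2 fell by 3.93, 1.79 and 1.67 on the log2 scale. Nfatc3, an NFAT family member, was the gene that rose, by 0.54. Myc fell from 244, 294 and 304 CPM to 197, 239 and 192 CPM (log2 fold change -0.42, edgeR adjusted p = 0.0138). That Myc call ended without co-cultured replicate 3 (adjusted p = 0.0561), restimulated replicate 1 (adjusted p = 0.0654) or restimulated replicate 3 (adjusted p = 0.0589), with library totals alone (adjusted p = 0.0522) and when all 12 libraries shared the spread (adjusted p = 0.0877).

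NF-kB genes and feedback genes of the MAP kinase pathway fell too. Of 14 NF-kB subunit and inhibitor genes 12 fell and 0 rose (median -1.06): the subunit genes Rel, Nfkb2 and Relb fell by 1.76, 1.65 and 1.55, and the feedback inhibitor genes Nfkbiz, Tnfaip3 (A20) and Nfkbia by 1.83, 1.54 and 1.20 on the log2 scale. Rela, the constitutively expressed subunit gene, was not called, at 75.6, 80.5 and 83.1 CPM before and 69.8, 78.1 and 66.1 CPM after. Of 14 MAP kinase feedback genes 12 fell and 2 rose (median -1.11). Spry4, a Sprouty inhibitor, had 1.51, 1.32 and 2.01 CPM before and 0 counts in all 3 restimulated libraries, at least 9.28-fold lower against a floor of 3 counts per library. Spred1 fell by 2.06 and the dual-specificity phosphatase gene Dusp4 by 2.16, whereas the phosphatase genes Dusp10 and Dusp7 rose by 1.24 and 1.00; the Dusp10 call ended when all 12 libraries shared the spread (adjusted p = 0.056). In the receptor-proximal list, which holds the CD3 chains, kinases and adaptors, 13 of 26 genes fell and 2 rose (median -0.34). The adaptor genes Lcp2 (SLP-76) and Lat fell by 1.24 and 0.72, while Ubash3a, a negative regulator of receptor signalling, rose by 0.90 and its relative Ubash3b fell by 1.36.

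Activation receptors and ligands fell in 17 of 24 cases and rose in 0 (median -0.97). Tnfrsf9, encoding the costimulatory receptor 4-1BB, fell from 651.5, 415 and 438 CPM to 93.4, 99.5 and 99.2 CPM (log2 fold change -2.37, SE 0.17, edgeR adjusted p = 1.82e-05). Tnfrsf4, encoding OX40, fell from 176, 204 and 199.7 CPM to 49.1, 58.4 and 42.9 CPM. The early activation marker gene Cd69 fell by 1.45. Il2ra, the high-affinity IL-2 receptor chain, changed less, from 549, 539 and 534 CPM to 353, 383 and 332 CPM (log2 fold change -0.60, SE 0.08). Icos, a costimulatory receptor gene, was not called, at 46.3, 59.6 and 56.7 CPM before and 55.8, 55.8 and 80.0 CPM after. Cytokine receptor and STAT5 feedback genes fell in 14 of 23 cases and rose in 1 (median -0.78). Cish and Pim1, both induced by IL-2 through STAT5, fell by 2.19 and 2.41 on the log2 scale, and Il2rb, the receptor's beta chain, was not called, at 783, 653 and 682 CPM before and 482, 620 and 681 CPM after. Ifngr1, the ligand-binding chain of the interferon gamma receptor, was the member that rose, from 129, 77.1 and 77.6 CPM to 213, 231 and 280 CPM.

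Inhibitory receptors were mixed. Of 20 tested, 9 fell, 3 rose and 8 were not called (median -0.54), against 19.1% higher and 20.5% lower over all tested genes. Pdcd1, encoding PD-1, had 172, 117 and 118 CPM before and 62.9, 69.9 and 84.6 CPM after restimulation (log2 fold change -0.91, SE 0.17, edgeR adjusted p = 0.00347). Lag3 had 185, 155 and 160 CPM before and 61.8, 69.4 and 117 CPM after (log2 fold change -1.01, SE 0.24, edgeR adjusted p = 0.0155), and Tigit had 123, 113 and 119 CPM before and 33.9, 38.2 and 41.1 CPM after (log2 fold change -1.65, SE 0.10). The groups did not overlap for any of these 3, as for 52.9% of all tested genes. Restimulated replicate 3 was the highest of its group for all 3. Havcr2, encoding TIM-3, did not pass the test, at 212, 152 and 149 CPM before and 101, 111 and 147 CPM after (log2 fold change -0.51, edgeR adjusted p = 0.0531), and neither did Entpd1 (CD39), at 40.6, 35.9 and 37.1 CPM before and 19.9, 22.6 and 42.0 CPM after. Without restimulated replicate 3 both were called, Havcr2 at -0.68 (adjusted p = 0.0137) and Entpd1 at -0.83 (adjusted p = 0.00171), and Havcr2 was called by DESeq2 too (adjusted p = 0.0101). Ctla4 fell by 0.57 on the log2 scale. The call of Lag3 ended without co-cultured replicate 1 (adjusted p = 0.0608) or replicate 3 (adjusted p = 0.0552), and those of Pdcd1 (adjusted p = 0.154) and Ctla4 (adjusted p = 0.111) ended when all 12 libraries shared the spread. Those that rose were Lair1, a collagen receptor gene, Cd200r1 and Pecam1, by 3.57, 1.44 and 0.91. Restimulated replicate 3 was again the highest library for each, with 7.52 CPM of Lair1 against 2.04 and 2.00 in replicates 1 and 2. In TPM the restimulated order was Ctla4 (93.7 ± 4.12, SD, n = 3), Lag3 (84.5 ± 31.8), Tigit (63.9 ± 5.37), Havcr2 (52.3 ± 10.6), Pdcd1 (42.9 ± 8.11) and Entpd1 (24.1 ± 11.7), and each gene's mean ± SD overlapped that of its neighbour in this order.

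Exhaustion and effector transcription factors fell in 7 of 16 cases and rose in 2 (median -0.52), and 4 fell when all 12 libraries shared the spread. Tox, the factor that installs exhaustion, had 5.72, 3.21 and 4.23 CPM before and 0.4529, 0.4995 and 1.798 CPM after restimulation (log2 fold change -2.23, SE 0.50, edgeR adjusted p = 0.00621), and its call ended when all 12 libraries shared the spread (adjusted p = 0.0677). Tbx21 (T-bet), Runx3 and Zeb2, factors of effector differentiation, fell by 0.69, 0.71 and 0.67. Ikzf2 (Helios) rose by 0.94. Of 21 tested progenitor and memory genes 6 rose, 4 fell and 11 were not called (median 0.30), against 19.1% higher and 20.5% lower over all tested genes. Slamf6, a marker of progenitor-exhausted cells, rose from 5.07, 3.90 and 4.35 CPM to 25.4, 28.4 and 25.8 CPM (log2 fold change 2.58, SE 0.15, edgeR adjusted p = 1.57e-06). S1pr1, the receptor for exit from lymphoid organs, rose from 13.6, 17.5 and 17.7 CPM to 84.0, 76.2 and 75.6 CPM. The groups did not overlap for either gene, as for 52.9% of all tested genes. Tcf7, the defining factor gene of the same state, did not move with Slamf6: it had 6.54, 2.75 and 3.38 CPM before and 0.736, 0.562 and 7.63 CPM after, with restimulated replicate 3 far above the other restimulated libraries. Its log2 fold change was -0.49 (edgeR adjusted p = 0.743), and it was -2.68 (adjusted p = 0.00417) without restimulated replicate 3. Il7r, the IL-7 receptor gene, was not called at 0.60, at 142, 78.4 and 82.7 CPM before and 149, 122 and 187 CPM after; it was called at 0.92 (adjusted p = 0.00248) without co-cultured replicate 1. Bach2 and Bcl2, linked to quiescence and to survival, fell by 2.41 and 1.16.

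Among the 32 lists, which were chosen with earlier results of these data known, trafficking receptors had the highest median. Of 18 tested, 12 rose and 2 fell, with a median log2 fold change of 1.82, and 10 rose by at least 2-fold. Cxcr4, the receptor for CXCL12, rose from 9.89, 10.2 and 9.87 CPM to 113, 112 and 126 CPM (log2 fold change 3.55, SE 0.10, edgeR adjusted p = 2.27e-08). Cxcr3, the receptor for interferon-induced chemokines, rose from 2.28, 2.79 and 2.54 CPM to 21.97, 24.66 and 29.59 CPM. Itga4, the alpha4 integrin chain, rose from 102, 132 and 115 CPM to 571, 512 and 508 CPM, and its partner Itgb7 rose from 51.6, 51.9 and 53.4 CPM to 192, 221 and 275 CPM. Itgae (CD103), the alpha chain that pairs with the same beta7 chain and binds E-cadherin, rose from 0.559, 1.03 and 0.725 CPM to 7.30, 9.05 and 15.2 CPM. Ccr2 and Ccr8, chemokine receptor genes, rose by 2.41 and 2.48. For each of these receptors every restimulated library was above every co-cultured one. Over all tested genes 52.9% had no overlap between the groups, in either direction. Itga1 (CD49a, the collagen-binding chain of resident T cells) had 1.76, 2.30 and 3.67 CPM before and 13.6, 9.93 and 39.8 CPM after, and its call (edgeR adjusted p = 0.0154) ended without co-cultured replicate 1 (adjusted p = 0.0716), replicate 2 (adjusted p = 0.0948) or replicate 3 (adjusted p = 0.056). P2rx7, the receptor for extracellular ATP, had 0.473, 0.329 and 0.362 CPM before and 1.25, 1.62 and 5.34 CPM after, and its log2 fold change of 2.81 became 1.87 without restimulated replicate 3. The genes that fell were Itgb2 and Itgal, which encode the chains of the adhesion receptor LFA-1, by 0.70 and 0.59. In TPM, restimulated levels were 158 ± 31.7 for Itgb7, 155 ± 3.79 for Itga4, 112 ± 6.74 for Cxcr4 and 37.3 ± 3.14 for S1pr1 (SD, n = 3), and Itgb7 and Itga4 lie within their spread.

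**Figure D3:**
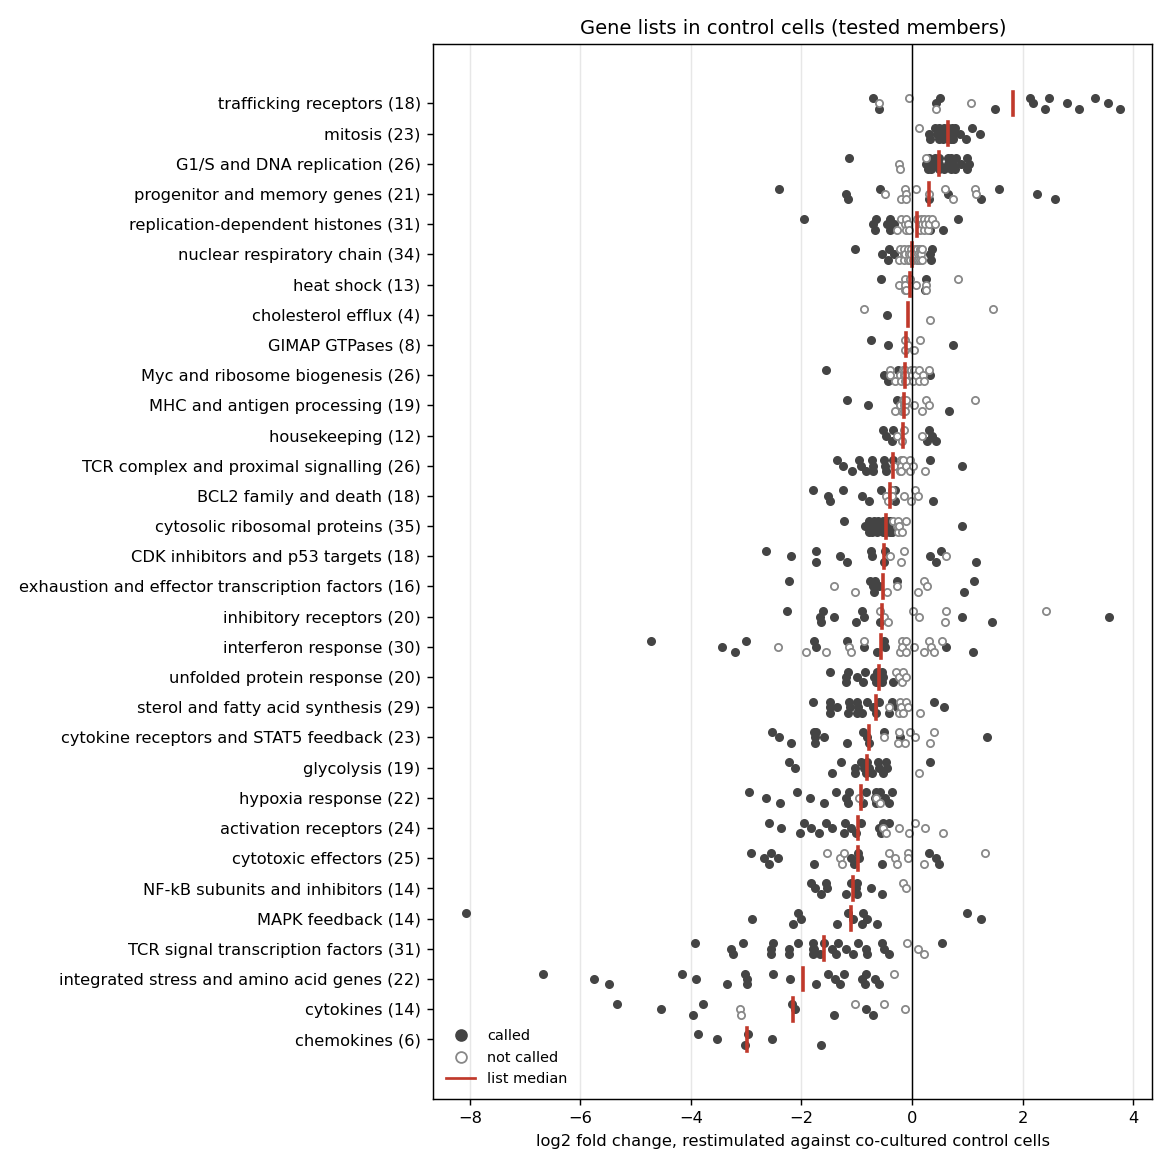
Log2 fold change (restimulated against co-cultured control cells) of every tested member of 32 gene lists, with the number tested in parentheses and lists ordered by median. The lists were chosen with earlier results of these data known. Filled points were called, open points were not, and red bars are list medians; trafficking receptors have the highest median (1.82) and chemokines the lowest (-2.99), while the median of all tested genes is 0. The point at -8.07 is Spry4, whose place depends on the fit because it had 0 counts after restimulation; its list's median is the same with Spry4 at its bound.

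Cell cycle genes were slightly higher in restimulated libraries. Of 23 mitosis genes 22 rose and 0 fell (median 0.66), and of 26 genes of the G1/S transition and DNA replication 22 rose and 1 fell (median 0.49); only 2 genes in each of these lists rose by 2-fold or more. Mki67, the proliferation marker gene, rose from 1922, 1821 and 1899 CPM to 2562, 2537 and 2409 CPM (log2 fold change 0.41, SE 0.09, edgeR adjusted p = 0.00468). Ttk, a spindle checkpoint kinase, rose from 51.4, 63.7 and 61.3 CPM to 144.5, 136 and 135 CPM, and Pola1, the catalytic subunit of DNA polymerase alpha, from 176, 171 and 177 CPM to 383, 316 and 347 CPM. The gene that fell was Ccnd2, the cyclin that growth signals induce in G1, from 298, 277 and 279 CPM to 121, 135 and 131 CPM. These calls depended on which libraries gave the spread: when all 12 libraries shared it, 1 mitosis gene and 8 replication genes were called higher, with Mki67 at an adjusted p of 0.107. CDK inhibitor and p53 target genes fell in 10 of 18 cases and rose in 4 (median -0.50). Cdkn1a (p21) fell from 80.0, 71.7 and 72.5 CPM to 26.5, 30.4 and 34.3 CPM, and Plk2, a stress-induced kinase, fell by 2.64; no gene of that list was called higher without co-cultured replicate 2 or without replicate 3. In the BCL2 family list 9 of 18 genes fell and 1 rose (median -0.40), among them the survival gene Bcl2l1 (BCL-XL), which fell by 1.52, and the death-promoting gene Bbc3 (PUMA), which fell by 1.48.

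In each of the lists of Myc and ribosome biogenesis, ribosomal proteins and antigen processing, 1 gene fell and 0 rose by at least 2-fold. In the interferon response list 7 genes fell and 1 rose by that much. Over all tested genes 7.63% fell and 5.32% rose by that much. In the Myc and ribosome biogenesis list 21 of 26 genes were not called, 4 fell and 1 rose (median -0.12), and the number that fell was 11 without co-cultured replicate 1, 2 without restimulated replicate 1, and 1 without co-cultured replicate 2 or 3 or restimulated replicate 3. The number that rose was 2 without co-cultured replicate 2 and 0 without any 1 of the other libraries. Cytosolic ribosomal protein genes fell in 27 of 35 cases and rose in 1, by a median of -0.47. Their counts are uncertain because near-identical copies can take reads, and the number that fell was 14 without restimulated replicate 1 and 15 without restimulated replicate 2. Interferon response genes fell in 11 of 30 cases and rose in 2, with 17 not called (median -0.56), with 7 lower without restimulated replicate 1 and 6 higher without co-cultured replicate 1. Co-cultured replicate 1 was the highest co-cultured library for most members, with 88.5 CPM of Oas3, an antiviral enzyme that interferon induces, against 23.1 and 28.2 CPM in replicates 2 and 3 and 21.8, 27.2 and 27.7 CPM after restimulation. Isg15, a ubiquitin-like interferon target, had 9.37, 1.85 and 2.86 CPM before and 0.05661, 0.1249 and 0.327 CPM after (log2 fold change -4.72, SE 0.84), at levels near the floor of 3 counts in the restimulated libraries. Genes of class I MHC and antigen processing were not called in 15 of 19 cases, with 1 higher and 3 lower (median -0.14). GIMAP GTPase genes had 1 higher and 2 lower of 8, and cholesterol efflux genes 1 lower of 4. Replication-dependent histone genes had 3 higher and 8 lower of 31, and housekeeping genes 4 higher and 4 lower of 12. Over all tested genes 19.1% were called higher and 20.5% lower.

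Outside the lists, the largest called changes of genes with at least 10 CPM in 1 group included further surface and structural genes. Gucy2e, a membrane guanylate cyclase, rose from 0.215, 0.534 and 0.926 CPM to 10.8, 11.1 and 11.7 CPM (log2 fold change 4.30). Clec12a, an inhibitory lectin receptor, rose from 4.43, 1.56 and 0.765 CPM to 29.2, 24.1 and 33.5 CPM, and Clgn, a chaperone known from the testis, from 4.56, 3.82 and 4.23 CPM to 54.5, 40.2 and 23.1 CPM. Tm4sf19, a tetraspanin-like protein, fell from 64.3, 77.1 and 73.7 CPM to 1.08, 1.56 and 0.926 CPM (log2 fold change -5.92, SE 0.18). Scimp, an adaptor of antigen-presenting cells, and Lipg, endothelial lipase, fell by 5.33 and 5.21. Every restimulated library lay on 1 side of every co-cultured library for these, as the rule for naming them asked. Tpm3-rs7 and Eno1b, higher by 3.68 and 3.00, and Actbl2, lower by 6.53, resemble other genes closely, and their counts are uncertain.

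Markers of T cells and of other cells were measured beside these results. All 3 restimulated libraries expressed the T cell receptor gene Trac (1830 to 2263 counts), and 5 of 9 tested CD8 identity genes fell and 0 rose, with a summed level of 2942 to 3970 CPM before and 2384 to 2762 CPM after; the number that fell was 2 without restimulated replicate 1 and 3 without replicate 2. Cd8a fell by 0.95, and Cd3e was not called, at 239, 181 and 184 CPM before and 176, 196 and 221 CPM after. Of 18 GL261-like markers 13 were in both tables and 6 were tested, with 1 higher and 4 lower and a summed level of 976 to 1060 CPM before and 858 to 1070 CPM after, most of it from Vim, which T cells also express. The defining glial genes Gfap, Olig2 and S100b were at 0 in the restimulated control libraries and were not analysed here in the co-cultured ones. Of 7 tested dendritic cell markers 4 rose and 1 fell, each by at least 2-fold, with a median log2 fold change of 1.76. Their summed level was 68.8 to 77.1 CPM before and 68.9 to 110 CPM after. Besides Itgax, the genes that rose were among Flt3, Cd74 and the class II MHC genes H2-Aa, H2-Ab1 and H2-Eb1. The integrin gene Itgax (CD11c) rose from 2.58, 2.75 and 2.50 CPM to 16.98, 19.98 and 52.75 CPM, the dendritic factor gene Zbtb46 fell from 14.02, 8.794 and 11.2 CPM to 1.02, 1.31 and 0.654 CPM, and Cd209a and Siglech were at 0 in the restimulated libraries. Tested monocyte and macrophage markers were not called (0 of 3), with a sum of 16.3 to 17.2 CPM before and 13.1 to 20.2 CPM after and Lyz2, Csf1r and C1qa at 0 after. Markers of B cells (sum 53.9 to 67.3 CPM before, 24.1 to 30.5 CPM after), NK cells (78.9 to 144 and 30.1 to 40.9 CPM) and CD4 or regulatory T cells (190 to 214 and 114 to 134 CPM) had 2, 2 and 4 genes lower and 0 higher, of 4, 4 and 5 tested, with the B cell gene Ms4a1 at 0 after restimulation. Neutrophil and erythroid markers had no tested member, with sums of at most 0.0805 and 0.344 CPM before and 0.981 and 0.382 CPM after. The part of other cell types in the results was not tested.

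Control cells were finally set against cells expanded with ATRA, to ask where the restimulation change differed between them. The ATRA minus control difference of the change was tested as an interaction over all 12 libraries and 12265 genes; a factor that both treatments share within a state cancels in it. It was called for 6077 genes (49.5%), with 2920 (23.8%) more positive and 3157 (25.7%) more negative in ATRA cells. Of the 4578 genes called in control cells and tested here, 2731 were called for a difference, and for 2037 of these the fitted changes had opposite signs. For 309 the change had the same sign and was larger in control cells, and for 385 it was larger in ATRA cells. Among the 25 genes fixed by name, Xcl1 changed by -2.93 in control and by 8.02 in ATRA cells, Egr2 by -3.21 and 4.89, Ccl3 by -3.49 and 4.38, and Ifng by -3.77 and 2.81 on the log2 scale. Behind the Ifng values lie group means, in the scaling over 12 libraries, of 779 CPM in co-cultured and 57.1 CPM in restimulated control cells, and of 54.9 and 386 CPM in ATRA cells. Prf1 changed by -2.54 and 0.46, and Tigit by -1.63 and 1.49. For Pdcd1 and Havcr2 the fitted values were -0.88 and -0.49 in control cells, where neither passed the test in this fit (adjusted p = 0.154 and 0.104), and 2.11 and 1.26 in ATRA cells. Slamf6 went the other way, by 2.60 in control and -2.65 in ATRA cells, from 4.35 to 26.3 CPM and from 7.94 to 1.25 CPM. Mki67 and Myc fell in ATRA cells, by 1.13 and 2.44, and had fitted values of 0.43 and -0.40 in control cells that did not pass the test in this fit (adjusted p = 0.107 and 0.0877). For Il2ra, Ctla4 and Tox the difference was not called, at 0.21 (adjusted p = 0.14), -0.60 (adjusted p = 0.17) and 1.45 (adjusted p = 0.35), which does not show that the changes were alike. Leaving out 1 library moved these values: Ctla4 was called at -0.82 (adjusted p = 0.0312) without ATRA co-cultured replicate 1 and stood at -0.13 without replicate 3, Il2ra was called at 0.26 (adjusted p = 0.0353) without ATRA co-cultured replicate 3, and Tox stood at 0.87 without that library and at 2.40 without restimulated control replicate 3.

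**Figure D4:**
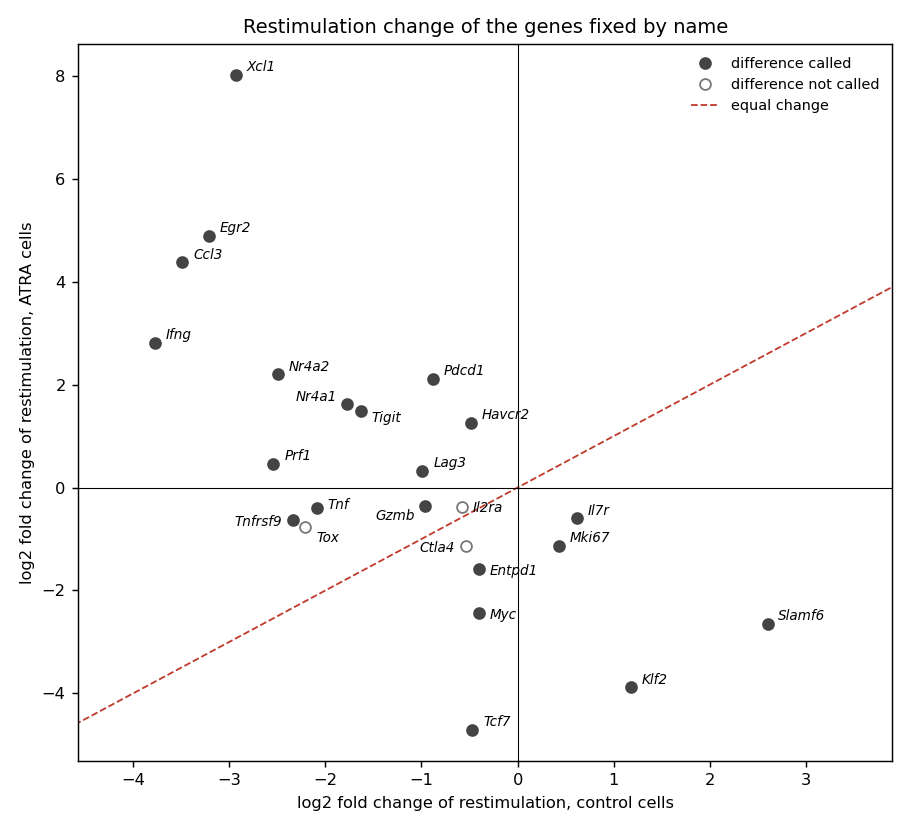
Log2 fold change of restimulation in control cells (x axis) against that in ATRA cells (y axis) for the tested genes fixed by name, from 1 fit of all 12 libraries. Filled points were called for a difference, open points were not, and the dashed line marks equal change; Xcl1, Egr2, Ccl3 and Ifng lie at negative control and positive ATRA values, and Slamf6 and Klf2 at positive control and negative ATRA values.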

How the data were processed

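RNA from sorted live CD45.2+ cells was made into stranded total RNA libraries, per the labels' protocols. The submitters' processing notes name STAR 2.7.11b, Salmon 1.10.3, cutadapt 5.0 and DESeq2 1.42.1, with build mm39. How each was set, the annotation and the use of strand were not given in any source used. The deposited tables hold counts per gene symbol, 1 table for each state, and a table of TPM values made by the authors, from which only the restimulated control levels were taken. The sample descriptions assign the TPM values to the restimulated samples but give other column names. The TPM columns were therefore matched to the group by the name used for control cells, and not to single libraries.

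The rule joined the 2 count tables on symbols present in both (13625), left out 149 ending in -ps or -ps with digits, and used 6 of 12 libraries. Counts were tested with edgeR 4.0.16 (TMM scaling, filterByExpr by group, robust quasi-likelihood test, Benjamini-Hochberg adjustment over all tested genes, threshold 0.05), and CPM is scaled by TMM. The smallest row sum of the co-culture table is 10, so genes without a row there were not analysed here. The ATRA comparison was an interaction term over 12 libraries. On simulated counts with 11575 genes tested in the control comparison, 49 of 50 genes changed by log2 1 were recovered. At -2, -1 and 2, 50 of 50 were recovered each time, and 5.687% of calls were false. The simulation gave every gene the same spread, changed only these genes and held no replicate that stood apart. Its rates therefore need not hold for the deposited libraries. Libraries of a group were not copies: chi-square per degree of freedom was at least 3.22 for each pair.

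The members and gene lists were chosen with earlier results of these data known. Genes named are the 10 largest called increases and decreases with at least 10 CPM in the higher group and no overlap, predicted genes aside; the 2 called members of lowest p per list; 25 fixed genes; and list members that describe their list. Alternatives covered normalization by DESeq2 1.42.0, upper quartile or library totals, filters, synonym matching, a replicate block, all 12 libraries, a 1.5-fold test and each library left out; leaving out close copies was chosen after seeing the data. Upstream sequence is from RefSeq (GRCm38.p6), used for sequence only. Some genes are not reported here.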

Additional observations from a re-analysis of the deposited data

Results flagged for a closer look

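The restimulation change differed between ATRA and control cells for 6077 of 12265 tested genes (49.5%) by the interaction test in edgeR. Of the 25 genes fixed by name 21 were among them, and Il2 was not tested. Differences below are ATRA minus control on the log2 scale. The change was more positive in ATRA cells for chemokine genes Xcl1 (10.95) and Ccl3 (7.87), cytokine genes Ifng (6.58) and Tnf (1.70), signal-induced factor genes Egr2 (8.10), Nr4a2 (4.70) and Nr4a1 (3.39), receptor genes Tigit (3.12), Pdcd1 (2.99), Havcr2 (1.75), Tnfrsf9 (1.70) and Lag3 (1.3), and cytotoxic genes Prf1 (3.00) and Gzmb (0.61). It was more negative in ATRA cells for Slamf6 (-5.25), Klf2 (-5.06), Tcf7 (-4.25), Il7r (-1.22), Myc (-2.04), Mki67 (-1.56) and Entpd1 (-1.19). Klf2 was near the floor of 3 counts in control cells, with group means of 0.281 and 0.647 CPM. The Tcf7 call ended in 7 of the 12 fits that left out 1 library, at -2.05 (edgeR adjusted p = 0.15) without restimulated control replicate 3. Entpd1 became -0.78 without that library. The edgeR adjusted p of Gzmb was 0.0449, and its call ended in 9 of those 12 fits. Causes were not tested.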

How the results depend on the processing

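The 4582 calls in control cells became 3243 (without co-cultured replicate 3) to 4973 (without co-cultured replicate 1) when 1 library was left out, 4762 with DESeq2, 3963 when all 12 libraries shared the spread, 4612 with synonyms and 4523 without close copies. Genes called with at least 2-fold numbered 985 with a mean of at least 5 CPM, against 1497. A test against a 1.5-fold change called 1366, with 560 higher and 806 lower. The interaction count of 6077 ran from 5364 to 7043 with 1 library left out and was 6400 with DESeq2. Co-cultured and restimulated libraries of the same number carry different batches, and their deviations correlated at -0.12, 0.15 and -0.17, so the numbers share only a name; not every library correlated best with its own number, and the replicate block gave 4013 calls. In the interaction, where libraries of a state share a batch by number, the replicate block gave 5406 calls and ended those of Gzmb (adjusted p = 0.0788) and Tcf7 (-3.36, adjusted p = 0.0604). Of 169 genes given with alternatives, 43 lost a call in some alternative, 5 gained one and 0 changed direction. Counts in lists varied too: histone genes called higher numbered 3, against 8 with library totals and 0 with all 12 libraries, and housekeeping genes called higher numbered 4, against 2 without co-cultured replicate 2 or 3. Depth limits genes under 0.187 CPM.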
